A study of Mus musculus with 7 samples.

Results

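The 7 genes Igfbp4, Cxxc5, App, Xkrx, Hacd1, Cnn3 and Cnr2, all transcribed in naive OT-I T cells, were followed across 7 arrays of sorted cells. They were picked by name for large differences from naive cells in at least 1 host, out of 18194 named genes, of which 8203 were tested. All 7 are covered by 22 probe sets carrying that single gene symbol, and 17 of these reached log2 5 on at least 2 arrays. Differences from naive are therefore given as a description without a test, and tests are kept for the differences among divided cells, which the choice did not name but which come from the same arrays.

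OT-I cells are CD8 T cells with a transgenic receptor for an ovalbumin peptide. All groups began as CD44lo cells of Ly5.1 OT-I mice, purified by magnetic depletion, labelled with the division-tracking dye CFSE, and injected into C57BL/6 background hosts. The naive group (n = 2 arrays) was undivided cells recovered from the spleens of B6 hosts without antigen at 60 h. The RIP-OVAhi group (n = 2) was cells that had divided at least 2 times by 60 h in hosts expressing ovalbumin under the rat insulin promoter, a deletional tolerance model, and was taken from sacral and pancreatic lymph nodes. The OCS/LPS group (n = 2) was cells divided at least 2 times by 60 h in the spleens of hosts primed with ovalbumin-coated splenocytes and lipopolysaccharide. The Rag group (n = 1) was cells divided at least 2 times by day 5 in the spleens of Rag-/- hosts, which lack their own T and B cells and drive lymphopenia-induced proliferation. Every sample pooled cells of 10 mice, or 20 mice in the RIP-OVAhi group. Tissue and host coincide for RIP-OVAhi, and time and host coincide for Rag, so these cannot be told apart.

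A naive T cell is quiescent, and encounter with antigen replaces much of its transcript pool within days, whereas division driven by an empty niche relies mainly on cytokines and weak self-recognition. The 7 genes do not form a pathway. Igfbp4 encodes a secreted protein that binds insulin-like growth factors, App the amyloid precursor protein that secretases cleave at the membrane, and Cnr2 the cannabinoid receptor of immune cells, which couples to inhibitory G proteins. Xkrx belongs to the XK family of multi-pass membrane proteins, some of which scramble phospholipids. Cxxc5 encodes a nuclear CXXC zinc finger protein that also acts on Wnt signalling through Dishevelled, Hacd1 a dehydratase of very long chain fatty acid elongation, and Cnn3 a calponin that binds actin filaments.

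The promoter windows below are shown because these genes had 3 different patterns: Igfbp4 and App stayed near their naive level in the Rag group, Xkrx was low in every divided group, and Hacd1 was lowest in the Rag group. RefSeq windows (GRCm38.p6) were searched for 6 of the 7 genes, 7 windows in all, and Cxxc5 was left out. The 250 bases before the start are printed 5′ to 3′ on the gene's strand. Capitals mark matches on either strand to any of 8 motifs.
Igfbp4, chr11:99040994-99041243, plus strand: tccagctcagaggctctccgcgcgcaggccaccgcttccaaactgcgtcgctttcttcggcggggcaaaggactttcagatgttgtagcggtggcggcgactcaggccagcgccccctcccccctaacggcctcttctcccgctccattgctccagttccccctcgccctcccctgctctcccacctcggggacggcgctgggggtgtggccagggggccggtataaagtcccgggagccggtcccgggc
App, chr16:85173708-85173957, minus strand: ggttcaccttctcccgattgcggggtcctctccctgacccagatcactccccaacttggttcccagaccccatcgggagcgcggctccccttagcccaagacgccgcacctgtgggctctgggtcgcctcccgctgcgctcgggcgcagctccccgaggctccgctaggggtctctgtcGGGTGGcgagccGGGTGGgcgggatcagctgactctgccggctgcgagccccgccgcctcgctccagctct
Xkrx, chrX:134162960-134163209, minus strand: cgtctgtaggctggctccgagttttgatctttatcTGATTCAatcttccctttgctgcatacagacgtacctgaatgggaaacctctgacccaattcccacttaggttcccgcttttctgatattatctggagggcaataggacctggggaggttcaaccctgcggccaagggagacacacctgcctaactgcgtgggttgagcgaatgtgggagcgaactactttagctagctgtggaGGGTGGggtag
Hacd1, chr2:14056036-14056285, minus strand: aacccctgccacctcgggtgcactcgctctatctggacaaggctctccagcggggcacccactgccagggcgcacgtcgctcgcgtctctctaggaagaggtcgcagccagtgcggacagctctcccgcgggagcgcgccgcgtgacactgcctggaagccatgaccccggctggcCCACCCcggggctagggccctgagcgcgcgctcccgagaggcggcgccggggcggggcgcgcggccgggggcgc

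The motifs searched, with the share of all 32851 windows of this length that hold them, were TGTTTAC for FOXO (3.17%), CTTTGA for TCF/LEF (13.8%), CCACCC for KLF (28.1%) and TGTGGT for RUNX (14%). The others were CCGGAAG for ETS (6.91%), GGAAAA for NFAT (20.4%), TGANTCA for AP-1 (6.75%) and CACGTG for the Myc E-box (6.02%). The Igfbp4 window held none of the 8. The App window held 2 KLF matches, beginning at -71 and -59 from the start, Hacd1 held 1 at -74, and Xkrx held 1 at -11 together with an AP-1 match at -215. The Cnn3 window, not printed, held 2 KLF matches that overlap each other, and each of the 2 Cnr2 windows held 1 TCF/LEF match. These letters are a description of the windows and name no binding site.

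Array medians ranged from 2.97 to 3.08 (log2), and replicate correlations across genes were 0.975 (naive), 0.991 (OCS/LPS) and 0.991 (RIP-OVAhi). The cells carried T cell identity: 11 of 11 measured markers, Cd8a and Cd3e among them, lay at log2 5 or more on every array. Sex-linked transcripts split the replicates by number: Xist read 2.67 to 2.74 on arrays numbered 1, the Rag array included, and 12.73 to 13.01 on those numbered 2. Transcripts of other cells were present in some groups. Csf1r, the receptor of macrophages, read 8.51 in Rag and 2.44 to 2.56 elsewhere, and H2-Aa, an antigen-presentation gene, read 1.77 and 2.74 with RIP-OVAhi hosts and 6.50 to 7.63 on all arrays from spleen. In such sorted bulk samples, fewer cells of a type and less RNA per cell cannot be told apart.

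Measured against naive cells, each gene lay lower in every divided group, and the hosts differed in which genes they kept at a measured level. Values are GCRMA log2 levels of the probe set with the highest mean, and those under log2 5 are called near background. Naive cells held all 7 genes at log2 5 or more on both arrays. The RIP-OVAhi arrays kept 5 of them there (Igfbp4, Cxxc5, Hacd1, Cnn3 and Cnr2), the OCS/LPS arrays 4 (Igfbp4, Hacd1, Cnn3 and Cnr2), and the Rag array 5 (Igfbp4, Cxxc5, App, Cnn3 and Cnr2). Of the 7742 tested genes at log2 5 or more on both naive arrays, 97.7% stayed there in RIP-OVAhi, 97.8% after OCS/LPS and 98.9% for Rag. The working description of the genes as shut off thus holds in level for App and Xkrx in both antigen groups, for Cxxc5 in OCS/LPS and for Xkrx and Hacd1 in Rag. The other combinations lay lower than naive and were still measured by the probe set used. Staying at log2 5 depends on the naive level, a mean of 12.6 for Igfbp4 and 6.28 for Xkrx. Igfbp4 thus counts as kept in RIP-OVAhi, where it lay 32.4-fold under naive.

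**Figure D1:**
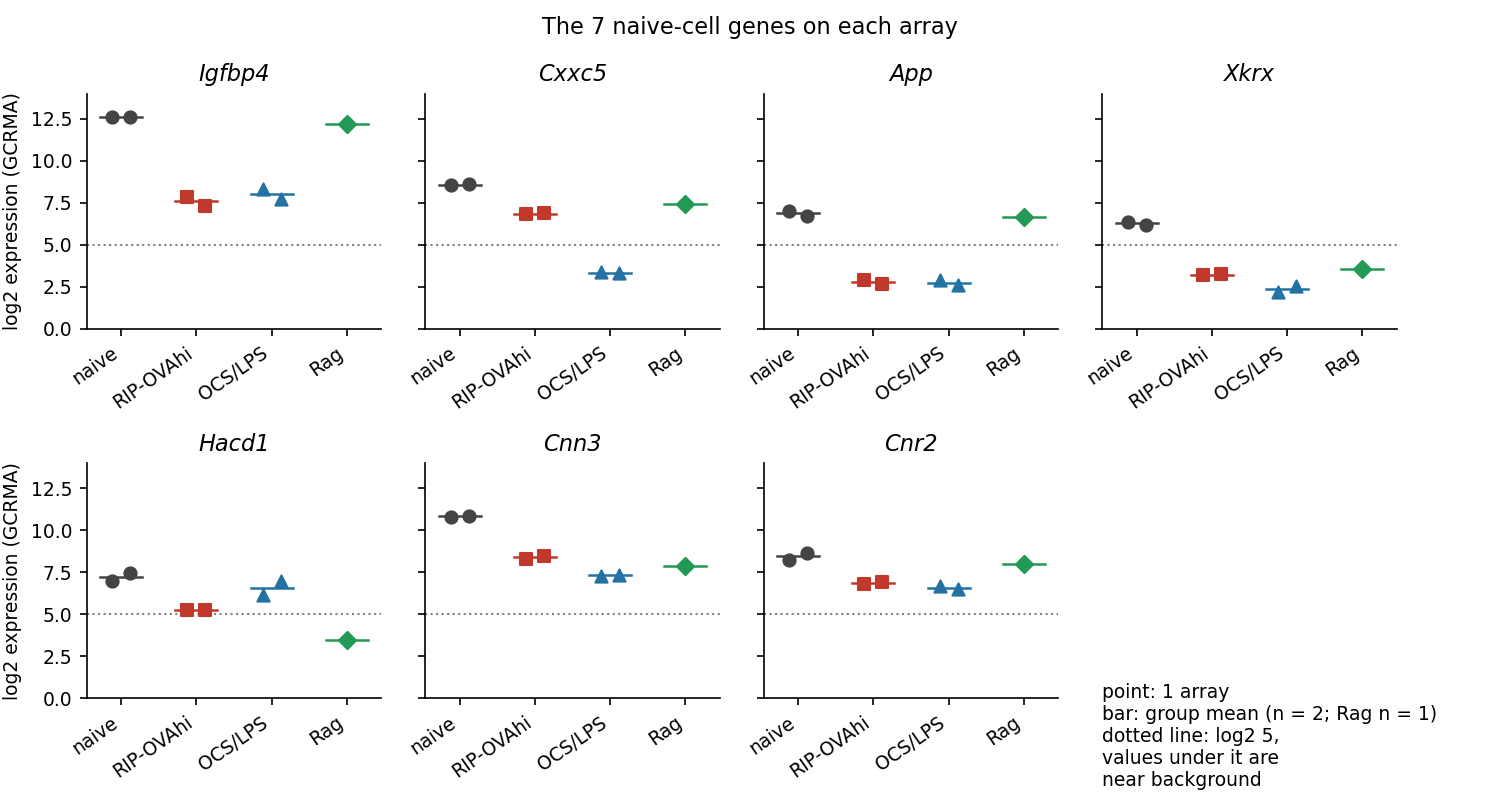
Each panel shows 1 gene, with the log2 expression value on the vertical axis and the 4 groups on the horizontal axis. Points are arrays, bars are group means, and the dotted line is log2 5. App sits at 6.65 in Rag and between 2.58 and 2.90 in both antigen groups, whereas Hacd1 has its lowest value, 3.50, in Rag.

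On every array of every divided group, all 7 genes lay under both naive arrays, as 29.0% of tested genes did in RIP-OVAhi, 28.6% under OCS/LPS and 29.3% for Rag. All 7 were more than 2-fold lower in RIP-OVAhi than in naive cells, 6 in OCS/LPS and 4 in Rag. Over all tested genes the same held for 5.03%, 5.03% and 1.57%, and since these contrasts chose the genes, nothing is read from the difference. The median difference from naive over the 7 genes was -2.42 in RIP-OVAhi, -3.93 after OCS/LPS and -1.17 for Rag, against 0.06, 0.08 and 0.04 over all tested genes. With values under log2 5 counted as 5 it was -1.87, -1.87 and -1.17, against 0.05, 0.08 and 0.02. The choice set no numerical threshold. Among the genes whose means reached log2 5 on both sides (7690, 7699 and 7732 in the 3 groups), Igfbp4 stood in place 1 by size of fall in RIP-OVAhi and likewise after OCS/LPS, and Cnn3 in place 3 for Rag. At the other end Cnr2 stood in place 95 in RIP-OVAhi, Hacd1 in place 732 under OCS/LPS and App in place 1684 for Rag. Over all tested genes Igfbp4 stood in place 3 in RIP-OVAhi and 4 after OCS/LPS, and Cnn3 in place 10 for Rag. Because these falls chose the genes, nothing is read from their places.

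The secreted and membrane genes come first. Igfbp4 read 12.60 on both naive arrays, 7.85 and 7.31 with RIP-OVAhi hosts, 8.34 and 7.72 after OCS/LPS and 12.16 in Rag. The antigen groups overlapped each other and lay more than 4 log2 units under naive, while the Rag array was 0.44 under the lower naive array. Naive cells thus had 32.4-fold more Igfbp4 signal than RIP-OVAhi cells, 23.7-fold more than OCS/LPS cells and 1.36-fold more than Rag cells. A second Igfbp4 probe set read 10.72 and 10.38 in naive, 10.20 in Rag, 5.49 and 5.06 after OCS/LPS, and 4.92 and 2.85 with RIP-OVAhi hosts. Of the 6 Igfbp4 probe sets, 5 passed the filter on low values, and in these Rag differed from naive by -0.44 to -0.28. Apart from the brightest, all 4 had a RIP-OVAhi mean near background, with naive at least 1.79- to 46.9-fold higher. In OCS/LPS 3 of them did, with naive at least 1.79- to 3.75-fold higher, and the second probe set was 38.7-fold under naive. The remaining probe set stayed at 1.75 to 1.78 on every array.

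App read 7.03 and 6.72 in naive, 2.90 and 2.64 with RIP-OVAhi hosts, 2.90 and 2.58 after OCS/LPS, and 6.65 in Rag. The antigen groups were near background and overlapped, and the Rag array lay 0.07 below the lower naive array. Counting values under log2 5 as 5, App was at least 3.66-fold lower in RIP-OVAhi and in OCS/LPS than in naive cells. The 3 other App probe sets stayed under log2 5 throughout, the brightest reaching 3.41 in naive, so the pattern rests on 1 probe set.

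Cnr2, measured by 1 probe set, read 8.23 and 8.67 in naive, 6.83 and 6.93 with RIP-OVAhi hosts, 6.68 and 6.50 after OCS/LPS, and 8.01 in Rag. Like App it lay near naive in Rag and lower in both antigen groups: 2.97-fold below naive in RIP-OVAhi, 3.63-fold after OCS/LPS and 1.36-fold for Rag. The gap between the lower naive array and Rag, 0.22, was smaller than the distance between the 2 naive arrays.

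Xkrx read 6.36 and 6.20 in naive, 3.22 and 3.23 with RIP-OVAhi hosts, 2.16 and 2.53 after OCS/LPS, and 3.54 in Rag. All divided groups were near background, at least 2.43-fold under naive when values under log2 5 are counted as 5. Xkrx lies on the X chromosome, and its SD between the replicates was 0.11, 0.01 and 0.27 (n = 2 each).

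Among the nuclear, enzyme and cytoskeletal genes, Cxxc5 separated the 2 antigen groups. It read 8.53 and 8.63 in naive, 7.41 in Rag, 6.80 and 6.91 with RIP-OVAhi hosts, and 3.35 and 3.33 after OCS/LPS. The 4 groups did not overlap and stood in the order naive, Rag, RIP-OVAhi, OCS/LPS. Naive signal was 2.26-fold above Rag, 3.32-fold above RIP-OVAhi and at least 12-fold above OCS/LPS. The other Cxxc5 probe set gave the same order, with 5.64 and 5.55 in naive, 4.60 in Rag, 4.19 and 3.76 with RIP-OVAhi hosts and 2.34 and 2.29 after OCS/LPS, all divided values being near background and naive at least 1.51-fold higher.

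Hacd1 was kept best under OCS/LPS and least in Rag. It read 7.01 and 7.44 in naive, 6.13 and 6.98 after OCS/LPS, 5.26 and 5.25 with RIP-OVAhi hosts, and 3.50 in Rag. The higher OCS/LPS array was 0.03 under the lower naive array, RIP-OVAhi cells were 3.92-fold under naive and Rag cells at least 4.68-fold. The other Hacd1 probe set read 4.91 and 4.85 in naive, 4.77 and 4.52 with RIP-OVAhi hosts, 4.77 and 5.68 after OCS/LPS, and 3.98 in Rag. It reached log2 5 on 1 array alone, and its OCS/LPS mean was 0.34 above naive, unlike that of the probe set used. The probe set used carries a name ending in s, which marks probes shared with other transcripts.

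Cnn3 read 10.79 and 10.87 in naive, 8.32 and 8.49 with RIP-OVAhi hosts, 7.31 and 7.37 after OCS/LPS, and 7.88 in Rag. No groups overlapped, and every divided group was far below naive: 5.37-fold in RIP-OVAhi, 11.2-fold after OCS/LPS and 7.71-fold for Rag. All 6 Cnn3 probe sets passed the filter. Where both means reached log2 5, the differences from naive were -2.96 to -2.14 in RIP-OVAhi (5 probe sets), -4.10 to -3.37 in OCS/LPS (4) and -3.49 to -2.72 in Rag (5). The dimmest was near background in every divided group, at least 1.57-fold under naive. Of the 6, 5 (the brightest included) carry a name ending in x, which marks probes that can match other transcripts. The probe set without that mark read 7.88 and 7.90 in naive, 5.86 and 5.66 with RIP-OVAhi hosts, 4.01 and 4.90 after OCS/LPS (at least 7.44-fold under naive), and 5.17 in Rag.

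**Figure D2:**
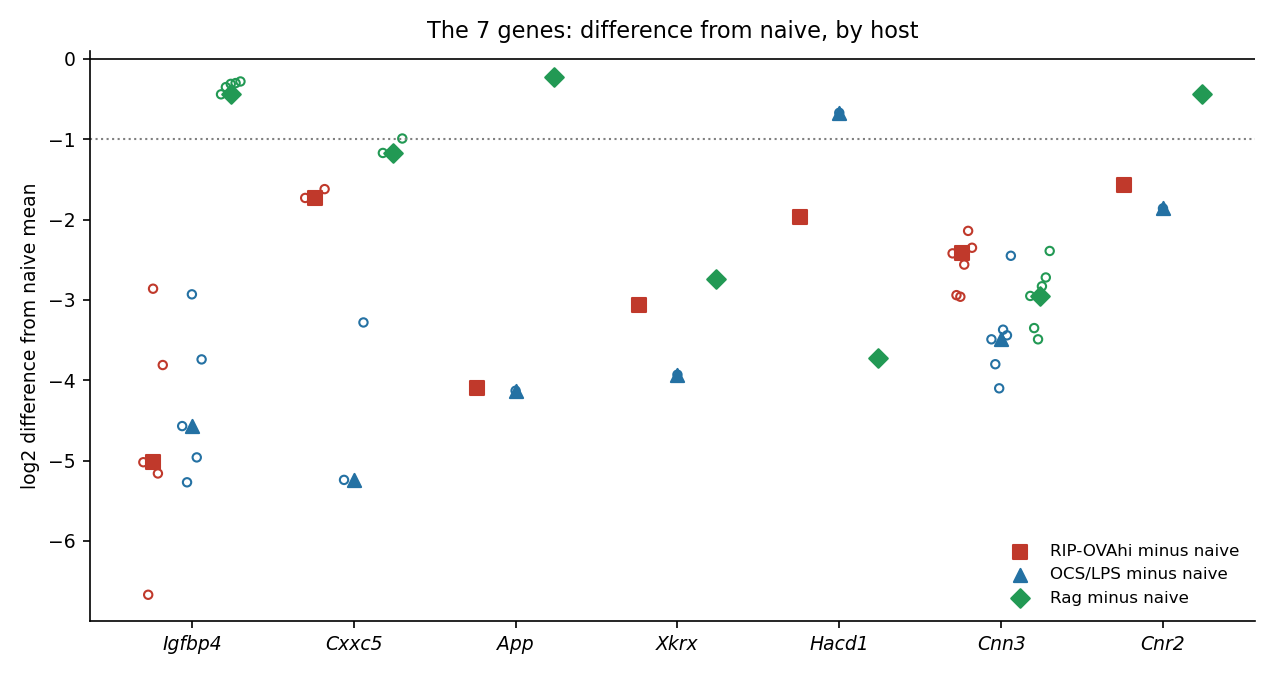
The vertical axis is the log2 difference of each divided group from the naive mean, for each of the 7 genes on the horizontal axis. Filled marks are the probe set used for the gene, open circles all its probe sets that passed the filter, and the dotted line is a 2-fold fall. Rag marks for Igfbp4, App and Cnr2 lie between -0.44 and -0.22, while Cnn3 in Rag lies at -2.95.

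The comparison of RIP-OVAhi with OCS/LPS sets tolerance against priming at the same time after transfer, in cells from lymph nodes and from spleen. Cxxc5 was higher in RIP-OVAhi (log2 difference 3.51, SE 0.12, limma adjusted p = 0.000222), by at least 1.85 once OCS/LPS values under log2 5 were counted as 5, with both RIP-OVAhi arrays above both OCS/LPS arrays. Cnn3 was 2.09-fold higher (1.06, SE 0.12, adjusted p = 0.0144), also with no overlap. These 2 of 7 compare with 2.91% of all tested genes called, of which 1.61% higher and 1.30% lower in RIP-OVAhi. Because falls from naive in both groups chose the genes, nothing is read from these shares. With any 1 of the 4 RIP-OVAhi and OCS/LPS arrays left out the Cxxc5 call held, with adjusted p up to 0.0148. The Cnn3 call was lost in all 4 cases, at 1.15 without RIP-OVAhi replicate 1 (adjusted p = 0.133), 0.98 without replicate 2 (0.174), 1.03 without OCS/LPS replicate 1 (0.137) and 1.09 without replicate 2 (0.153). With each probe set tested by itself, both Cxxc5 probe sets and 1 of 6 for Cnn3 were called. The dimmer Cxxc5 probe set was near background on every array of both groups, so nothing is read from its call.

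Xkrx was 0.88 higher in RIP-OVAhi (95% interval 0.48 to 1.27, adjusted p = 0.0534), with both groups near background. Hacd1 differed by -1.30 (interval -2.03 to -0.57, adjusted p = 0.102), and its SD between OCS/LPS arrays was 0.60 (n = 2). Igfbp4 (-0.45, interval -1.09 to 0.20), App (0.03, interval -0.43 to 0.49) and Cnr2 (0.29, interval -0.15 to 0.73) were not called, with adjusted p = 0.478, 0.966 and 0.51. For App both sides are near background, so a difference there could not be measured.

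The comparisons with Rag address antigen-driven against lymphopenia-driven division. Igfbp4 was 23.8-fold lower in RIP-OVAhi than in Rag (-4.58, SE 0.32, adjusted p = 0.000943) and 17.5-fold lower in OCS/LPS (-4.13, SE 0.32, adjusted p = 0.00122). All 5 Igfbp4 probe sets that were tested were called in both comparisons. App was lower in both, with -3.89 in RIP-OVAhi (SE 0.23, adjusted p = 0.000555) and -3.91 in OCS/LPS (SE 0.23, adjusted p = 0.000505), or -1.65 in each with values under log2 5 counted as 5. Cnr2 was 2.18-fold lower in RIP-OVAhi (-1.13, SE 0.22, adjusted p = 0.0222) and 2.67-fold lower in OCS/LPS (-1.42, SE 0.22, adjusted p = 0.0111). In each of these genes all 4 antigen arrays lay below the Rag array.

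Cxxc5 was lower in OCS/LPS than in Rag (-4.07, SE 0.14, adjusted p = 0.000179; -2.41 with values under log2 5 counted as 5), while in RIP-OVAhi the difference of -0.56 was not called (interval -0.91 to -0.20, adjusted p = 0.051). Xkrx was lower in OCS/LPS (-1.19, SE 0.20, adjusted p = 0.0134), a difference within the near-background range that was 0.0 once values under log2 5 were counted as 5. In RIP-OVAhi Xkrx differed from Rag by -0.32 (interval -0.80 to 0.17, adjusted p = 0.336). Among the 7 genes, Hacd1 alone was called higher than in Rag, by 1.75 in RIP-OVAhi (SE 0.37, adjusted p = 0.0271) and by 3.05 in OCS/LPS (SE 0.37, adjusted p = 0.00482). With values under log2 5 counted as 5, the RIP-OVAhi difference of Hacd1 was 0.26 (adjusted p = 0.708) and the OCS/LPS difference 1.56. Cnn3 was 0.52 higher in RIP-OVAhi (interval 0.15 to 0.89, adjusted p = 0.0677) against -0.54 in OCS/LPS (interval -0.91 to -0.17, adjusted p = 0.0589), neither called.

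Against Rag, then, 4 of 7 genes were called in RIP-OVAhi, 3 lower and 1 higher, and 6 of 7 in OCS/LPS, 5 lower and 1 higher. Over all tested genes 16.7% and 18.1% were called, 6.90% lower in each comparison and 9.84% and 11.2% higher. Falls from naive in these groups chose the genes, so nothing is read from the difference in shares. Of the calls counted here, Xkrx in OCS/LPS lay near background on both sides. The Hacd1 difference in RIP-OVAhi was 0.26 with values under log2 5 counted as 5. The Rag side is 1 array, assumed to vary like the other groups. Fitted on the compared groups alone, limma called 0 of 8203 genes in either comparison, with 3318 and 3312 at an unadjusted p under 0.05, and the 7 genes had adjusted p of 0.0572 or more. The RIP-OVAhi against Rag calls of Hacd1 and Cnr2 were lost without RIP-OVAhi replicate 1 (1.74, adjusted p = 0.135, and -1.08, adjusted p = 0.124) and without replicate 2 (1.76, 0.141, and -1.18, 0.113), and that of Cnr2 without either OCS/LPS array (-1.13, 0.0632). The OCS/LPS against Rag call of Cnr2 was lost without OCS/LPS replicate 1 (-1.51, 0.0591) and without replicate 2 (-1.32, 0.0834). That of Xkrx was lost without OCS/LPS replicate 1 (-1.01, 0.06) and without either RIP-OVAhi array (-1.19, 0.0559). Without either naive array, Cxxc5 was called between RIP-OVAhi and Rag (-0.56, adjusted p = 0.0225), and Cnn3 between Rag and both RIP-OVAhi (0.52, 0.036) and OCS/LPS (-0.54, 0.03).

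**Figure D3:**
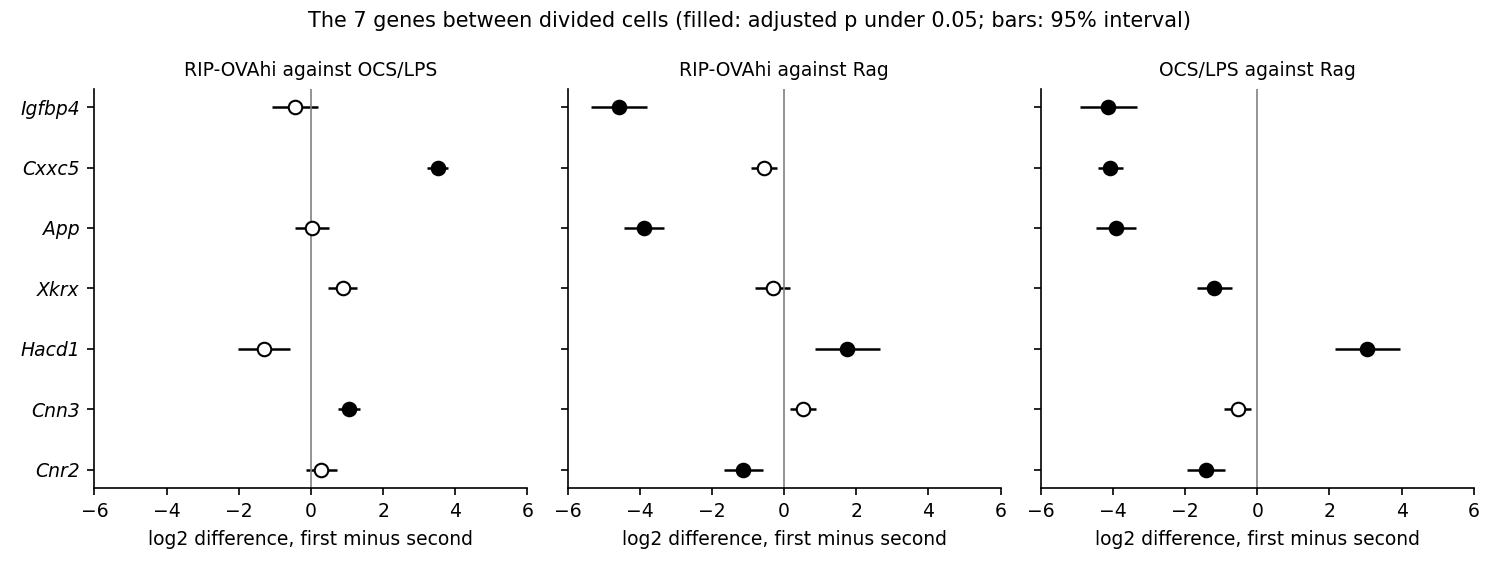
Each panel plots, for 1 comparison between divided cells, the log2 difference (first group minus second) of the 7 genes with its 95% interval from limma. Filled points have an adjusted p under 0.05. Igfbp4 lies at -4.58 and -4.13 in the Rag panels. Points resting on a group near background change when values under log2 5 are counted as 5, to -1.65 for App in both Rag panels and to 1.85 for Cxxc5 (plotted at 3.51) between RIP-OVAhi and OCS/LPS.

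Across the 7 arrays, Igfbp4 and App ran together (r = 0.995), as did Xkrx and Cnn3 (r = 0.982) and App and Cnr2 (r = 0.962). Hacd1 had r between -0.066 and 0.501 with the other 6. These are descriptions over 7 arrays that share 4 groups. In all, 220 of the 8203 tested genes, 2.68%, were more than 2-fold under naive in both antigen groups and not in Rag, as Igfbp4, App and Cnr2 were. In RIP-OVAhi, OCS/LPS and Rag alike 46 genes, 0.561%, were that low, as Cxxc5, Xkrx and Cnn3 were.

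Among the 553 tested genes whose group means spanned at least 2 log2 units, the profiles most like Igfbp4 over 7 arrays were Tent5a (r = 0.993), Stx2 (0.990) and Ppargc1b (0.988). Those most like App were Slc16a5 (0.994), Stx2 (0.993) and Lrrc75b (0.991), and Cnr2 was matched by Bbc3 (0.991), Rabac1 (0.982) and Nr2c1 (0.982). Slc16a5, for example, read 7.50 and 7.55 in naive, 7.63 in Rag, and 3.64 to 4.25 on the 4 antigen arrays. Cxxc5 was matched by the integrin gene Itgae (0.980), Rflnb (0.979) and the interferon-induced gene Ifit1 (0.977). Itgae read 10.80 and 11.37 in naive, 10.26 in Rag, 10.13 and 10.39 with RIP-OVAhi hosts, and 7.46 and 8.12 after OCS/LPS. Qser1 (0.984 and 0.981) and Mtss1 (0.963 and 0.979) led for both Xkrx and Cnn3, followed by Sbsn (0.956) for Xkrx and Rgcc (0.937) for Cnn3. Hacd1 had the loosest matches: Id2, a helix-loop-helix inhibitor (0.946), and the immunoglobulin genes Igha (0.883) and Igkv8-30 (0.883). Without the Rag array, 8 of these 21 places stayed among the closest 3, and the lowest were Rgcc at rank 31 for Cnn3 and Igkv8-30 at rank 23 for Hacd1.

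Genes that work with these 7 were tested against naive cells as well, where 29.6% of all tested genes were called in RIP-OVAhi, 32.9% under OCS/LPS and 2.73% for Rag (18.1%, 20.5% and 2.15% higher). For the IGF system, 2 of 15 genes passed the filter. Insr, the insulin receptor, fell in RIP-OVAhi (-2.04, SE 0.28, adjusted p = 0.00458) and in OCS/LPS (-1.50, SE 0.28, adjusted p = 0.0115) against naive, and differed from naive by 0.38 in Rag (adjusted p = 0.625). It was also lower than in Rag in both antigen groups (-2.42, adjusted p = 0.00845, and -1.87, adjusted p = 0.0195). Igf2r, which carries insulin-like growth factor II to lysosomes, rose in RIP-OVAhi against naive (1.42, SE 0.12, limma adjusted p = 0.000793) and was higher there than in OCS/LPS (1.17, adjusted p = 0.0107) and Rag (0.68, adjusted p = 0.0329).

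Of 10 tested genes of APP processing and its family, 4 rose and 1 fell in RIP-OVAhi against naive, 3 rose and 2 fell in OCS/LPS, and 0 were called in Rag. Bace1, the beta-secretase, fell by 2.39 in RIP-OVAhi (SE 0.28, adjusted p = 0.00239) and by 1.74 in OCS/LPS (SE 0.28, adjusted p = 0.0063). It read 8.16 and 8.90 in naive, 5.95 and 6.33 with RIP-OVAhi hosts, 6.66 and 6.92 after OCS/LPS, and 7.70 in Rag. Aplp2, the App paralog, rose by 0.66 and 0.68 (adjusted p = 0.0158 and 0.0132), and the presenilin gene Psen2 by 1.17 and 1.08 (adjusted p = 0.00879 and 0.0105).

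Of 6 tested endocannabinoid genes 1 rose in each antigen group against naive, the inhibitory G protein gene Gnai3 (0.56 and 0.60, adjusted p = 0.0203 and 0.0153), and none fell. Of 7 tested genes of the XK and scrambling list, 1 rose in RIP-OVAhi, and 1 rose and 2 fell in OCS/LPS. The riser, Plscr1, known as an interferon-inducible gene, went from 4.22 and 5.10 in naive to 9.22 and 8.75 with RIP-OVAhi hosts and 8.97 and 8.80 after OCS/LPS. Its level in Rag was 4.46.

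Of 9 tested genes on the list of CXXC domain genes and relatives, with Tet2 counted as a relative, 3 rose in RIP-OVAhi. In OCS/LPS 2 rose and 1, Tet2, fell, and none was called in Rag. Dnmt1, the maintenance DNA methyltransferase, rose by 1.48 (adjusted p = 0.000756) and 1.64 (adjusted p = 0.000455), and Tet2, which oxidises methylcytosine, fell by 0.64 in OCS/LPS (adjusted p = 0.0182). Of 9 tested Wnt genes, 2 fell in RIP-OVAhi and 1 in OCS/LPS. Dvl1, a Dishevelled gene, fell in both (-1.04, adjusted p = 0.032, and -1.25, adjusted p = 0.0161). Axin2, a feedback target of Wnt signals, fell in RIP-OVAhi (-1.66, adjusted p = 0.000723), and was lower there than in OCS/LPS (-1.33, adjusted p = 0.0107), the opposite order to Cxxc5.

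Of 8 tested fatty acid elongation genes, 1 rose and 1 fell in RIP-OVAhi and 1 fell in OCS/LPS. Elovl7, an elongase, fell by 2.06 in each (adjusted p = 0.00371 and 0.00341). The paralogs of Hacd1, Hacd2 and Hacd3, differed from naive by -0.21 and -0.37 in Rag (adjusted p = 0.813 and 0.364). Of 8 tested calponin and actin partner genes, 2 rose and 1 fell in RIP-OVAhi and 4 rose in OCS/LPS. Cnn2, the calponin paralog, read 13.19 to 13.49 on all 7 arrays. Cnn2 and Hacd2 were named as paralogs after their values were seen.

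The wider naive and quiescence list gives the setting. Of its 24 tested genes, 14 fell and 3 rose in RIP-OVAhi against naive, 13 fell and 0 rose in OCS/LPS, and 1 fell and 0 rose in Rag, where 11.6%, 12.3% and 0.585% of all tested genes fell. Its median difference was -0.68, -0.65 and 0.14. The interleukin-7 receptor gene Il7r was 12.94 and 12.78 in naive, 9.69 and 9.30 with RIP-OVAhi hosts, 10.52 and 10.44 after OCS/LPS, and 13.01 in Rag. The chemokine receptor gene Ccr9 was the list's call in Rag, at -4.51 (SE 0.69, adjusted p = 0.0317), and Abca1, a cholesterol exporter, had the order of Cxxc5 between the antigen groups, 5.91 in RIP-OVAhi against 3.46 in OCS/LPS (adjusted p = 0.00306). This list overlaps genes already known to move in these data, so it is no independent evidence of direction.

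**Figure D4:**
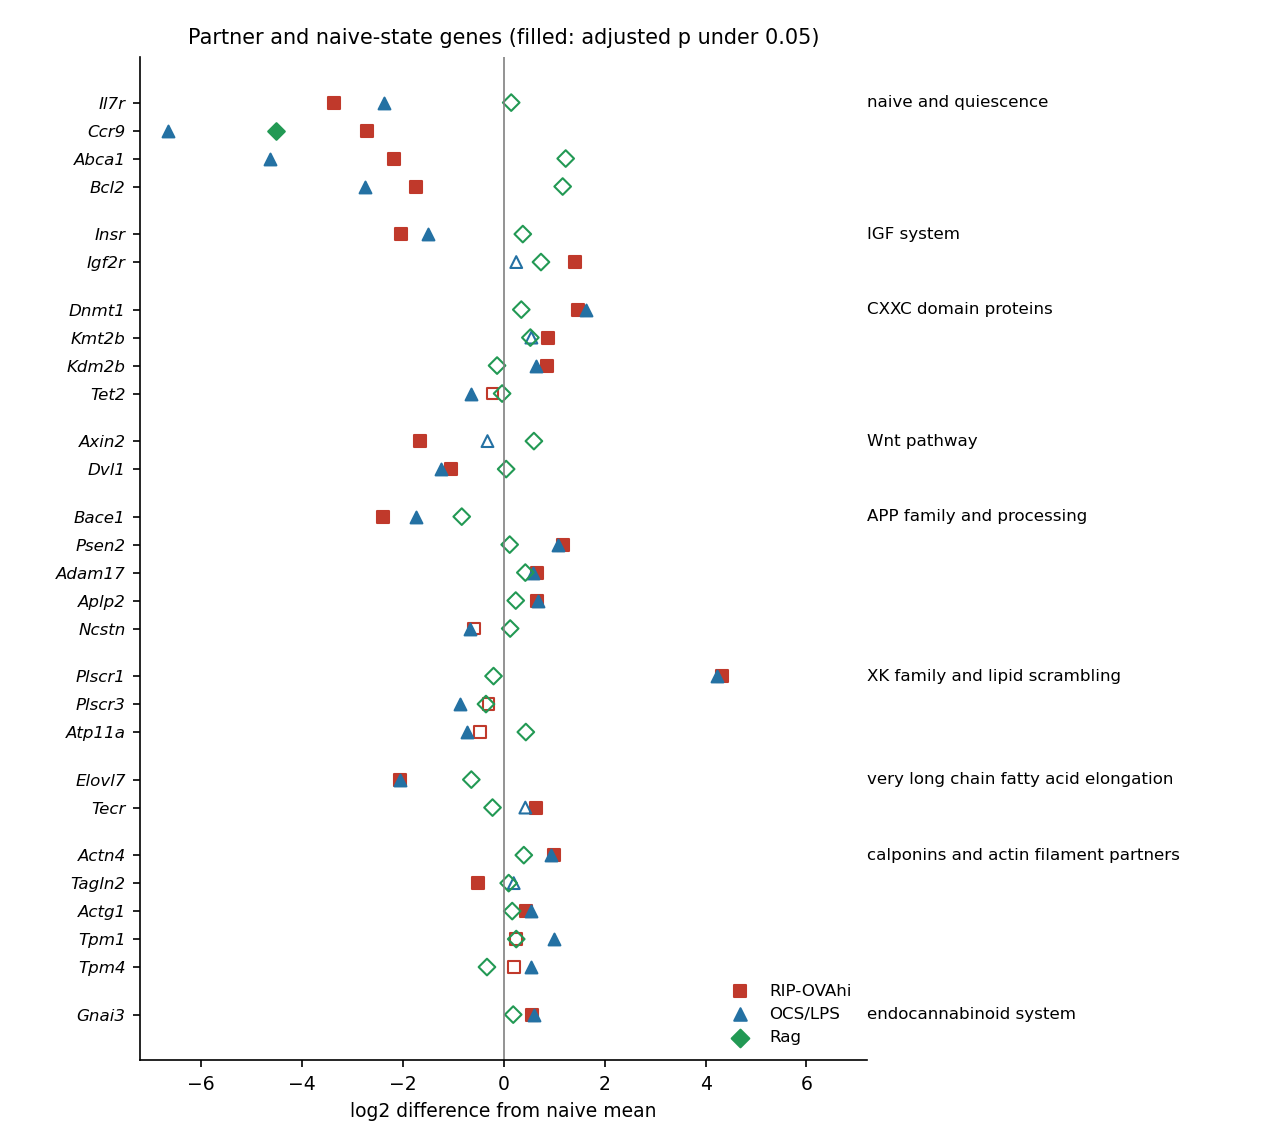
The horizontal axis is the log2 difference from the naive mean, and each row is a gene of the naive or partner lists that was called against naive in at least 1 group and named by the rule. Squares are RIP-OVAhi, triangles OCS/LPS and diamonds Rag, filled where the limma adjusted p was under 0.05. Ccr9 at -4.51 is the only filled diamond in this plot.

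Some transcripts of other cells moved with the Hacd1 result. Hacd1, high in naive and OCS/LPS and low in RIP-OVAhi and Rag, ran with the plasma cell genes Igha (r = 0.883 over 7 arrays) and Jchain (0.836) and the B cell gene Ms4a1 (0.785), partners singled out after their values were seen. Igha read 7.28 and 8.51 in naive, 4.89 and 7.52 after OCS/LPS, 3.40 and 3.41 with RIP-OVAhi hosts, and 3.48 in Rag. Of the 5 plasma cell genes, 3 were tested and Sdc1 and Prdm1 were near background on every array, and the log2 of the list's summed signal was 9.72 to 10.34 in naive, 10.14 to 10.38 in OCS/LPS, 9.59 to 9.96 in RIP-OVAhi and 9.06 in Rag. Of 10 measured B cell genes 6, Cd79a and Pax5 among them, were near background on every array, and the summed level was 12.21 to 12.28, 12.72 to 12.74, at most 12.04 and 11.92 in the same order. Other genes of both lists did not run with Hacd1. Xbp1 and Cd79b, each the brightest or next brightest of its list, had naive means of 9.36 and 7.69 and RIP-OVAhi means of 9.72 and 8.16, so they were higher where Hacd1 was lower (r = 0.306 and 0.470). Ighm, the brightest B cell gene, read 12.21 and 12.08 in naive, 11.86 and 11.85 with RIP-OVAhi hosts, 12.58 and 12.54 after OCS/LPS, and 11.85 in Rag (r = 0.605). Cd22, a B cell receptor regulator named after its values were seen, had means of 3.82, 6.78, 8.38 and 4.28 in the same order (r = 0.028). Ighm and Xbp1, which made most of the summed signal of their lists, read 11.85 and 8.98 in Rag, whose hosts lack B cells. Whether their signal came from host B or plasma cells was not tested. The part of B and plasma cell transcripts in the Hacd1 result was not tested either.

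The brightest macrophage and monocyte gene, Lyz1, which encodes lysozyme, read 7.94 and 8.67 in naive, 2.94 and 3.36 with RIP-OVAhi hosts, 7.40 and 8.23 after OCS/LPS, and 8.46 in Rag. Lyz2 read 5.31 and 6.06, 4.11 and 2.43, 5.46 and 6.05, and 5.79 in the same order. Both were thus low with RIP-OVAhi hosts alone, and r with App was 0.605 and 0.480. The list had its highest summed level in Rag, 10.34, against 8.57 to 9.21 in naive, 8.27 to 8.84 in OCS/LPS and 6.74 to 6.94 in RIP-OVAhi. In Rag, 6 of its 13 genes lay at log2 5 or more, Csf1r, C1qb (7.42) and Mpeg1 (7.58) among them, named after their values were seen, while C1qa, Cd14 and Cd68 were near background everywhere. App, Igfbp4 and Cnr2 were near their naive level in the Rag array, which had the highest summed level. Each was lower in OCS/LPS, whose summed level overlapped that of naive. The part of macrophage RNA in the naive and Rag levels was not tested.

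Of the remaining lists, MHC class II had a summed level of 8.81 to 9.20 in naive, 8.57 to 8.98 in OCS/LPS, 9.62 in Rag and 8.71 to 8.72 in RIP-OVAhi, with Ciita near background throughout. Its brightest gene in naive and RIP-OVAhi was H2-DMa, with means of 8.24 and 8.51. H2-Aa, H2-Ab1 and H2-Eb1 had means of 6.6, 5.24 and 5.11 in naive against 2.26, 3.36 and 3.69 in RIP-OVAhi. Of 10 stromal genes 9, of 10 neutrophil genes 9, of 4 NK cell genes 3 and of 8 red cell and platelet genes 6 were near background on every array. The dendritic cell list had Flt3 and Zbtb46 near background throughout and most of its signal from Ccr9 and Bst2, which T cells also express. It summed to 10.87 to 11.09 in naive, 7.78 to 8.20 in OCS/LPS, 8.69 in Rag and 8.82 to 9.15 in RIP-OVAhi. Its gene Itgax, a dendritic cell integrin that activated T cells can also express, read 5.64 and 5.52 after OCS/LPS and 2.25 to 2.29 elsewhere, the group in which Cxxc5 and Cnn3 were lowest, and its part there was not tested. Of 6 CD4 and regulatory T cell genes Ctsw alone, also a CD8 T cell gene, was measured. Genes of the division list had summed levels of 12.87 to 13.05 in naive, 13.79 in Rag, 15.26 to 15.37 in RIP-OVAhi and 15.51 to 15.71 in OCS/LPS, so the Rag array stood between naive and antigen-driven cells. Whether the levels of the 7 genes follow the share of dividing cells was not tested.

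**Figure D5:**
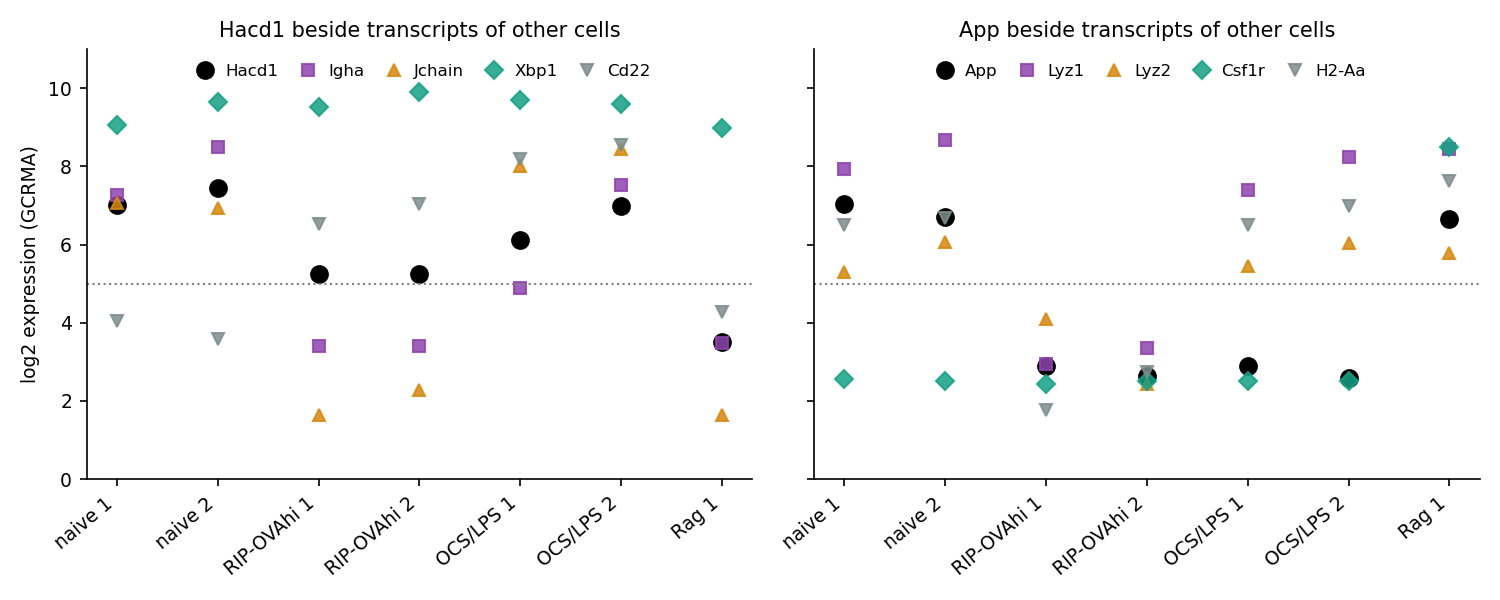
The left panel shows Hacd1 with plasma and B cell genes and the right panel App with macrophage and antigen-presentation genes, as log2 expression on each of the 7 arrays, with log2 5 dotted. Heights are compared along an array series and not between genes. Hacd1 and Igha are both low in RIP-OVAhi and Rag while Xbp1 is not, and Csf1r reads 8.51 in Rag and 2.44 to 2.56 elsewhere while Lyz1 is low in RIP-OVAhi alone.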

How the data were processed

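The authors deposited log2 expression values of 45101 probe sets, which GCRMA produced according to the submitters' processing notes (no version is stated there). This method corrects background from probe sequence, quantile-normalizes and summarises over all arrays, and therefore hides a shift common to most genes. RNA was extracted with Trizol, and 100 ng was labelled in a 2-cycle protocol, per the labels. The deposited values were used unchanged, and precision is limited by how few arrays there are.

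Names came from GEO's platform table, checked by Entrez identifier: 34958 probe sets had 1 symbol, 932 several and 9211 none. The probe set of highest mean stood for each gene, and 8203 genes with log2 of at least 5 on at least 2 arrays were tested. A model of group means over all 7 arrays was fitted with limma 3.58.1 (R 4.3.3; lmFit, eBayes; 3 residual and 2.93 prior degrees of freedom). P-values were two-sided and Benjamini-Hochberg adjusted over all tested genes, and called under 0.05. The labels do not say that pools of a group are independent experiments, though sex-linked transcripts differed between the numbered replicates, which therefore hold cells of different mice. P-values reflect the spread between these arrays only. The fit was checked on simulated data.

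The 7 genes and all lists were chosen with earlier results of these data known, so adjusted p-values among divided groups are not independent of the choice. Named were the 7 genes, up to 4 tested genes per partner list and comparison (called first, by size), the 3 tested genes most correlated with each of the 7, and the 2 brightest defining genes of each other-cell list at log2 5 or more on any array. Other host genes named were chosen after their values were seen. Alternatives changed the filter, scaling, floor, moderation, probe set, arrays and a replicate block.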

Additional observations from a re-analysis of the deposited data

Results flagged for a closer look

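The difference from naive was not the same in RIP-OVAhi and OCS/LPS for 2 of the 7 genes, by the test of RIP-OVAhi against OCS/LPS itself. Falls from naive in these groups chose the genes, so the test is not independent of the choice. The groups also came from lymph nodes and spleen, so tissue and host cannot be told apart. For Cxxc5 the change in RIP-OVAhi lay above that in OCS/LPS by 3.51 on the log2 scale. OCS/LPS was near background there, and the difference was 1.85 with values under log2 5 counted as 5. For Cnn3 it did so by 1.06, with -2.42 against -3.49. With any 1 array of these 2 groups left out, the Cnn3 difference was 0.98 to 1.15 and the call was lost. Tested singly, 1 of 6 Cnn3 probe sets was called. Groups of 2 arrays and 1 array are too small for a check of single outlying arrays.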

How the results depend on the processing

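Of 309 differences between divided groups recomputed under the alternatives, 266 did not reverse and kept their side of the threshold, 29 lost the call, 12 gained it and 2 reversed. Both were of App between RIP-OVAhi and OCS/LPS, near background in both, which went from 0.03 to -0.10 without RIP-OVAhi replicate 1 and to -0.13 without OCS/LPS replicate 2, in a range up to 0.19. With values under log2 5 counted as 5, that difference and those of Xkrx in all 3 comparisons were 0.0 and had no direction. Of 309 differences from naive, 284 moved by less than 1 SD between replicates and 25 by more. Many of the 284 could not move. A difference of group means is unchanged by the filter, the moderation or testing every probe set. Fitting the compared groups alone or dropping an array of an uninvolved group leaves it unchanged too. The same settings could not reverse a difference between divided groups. The number of genes called over all 8203 was 239 for RIP-OVAhi against OCS/LPS, 1373 and 1483 for RIP-OVAhi and OCS/LPS against Rag, and 2429, 2698 and 224 for RIP-OVAhi, OCS/LPS and Rag against naive. Leaving out 1 array gave 32 to 416, 370 to 2549, 397 to 2833, 807 to 3281, 1018 to 3646 and 59 to 1622 in the same order, and 1 to 2, 2 to 6 and 4 to 7 of the 7 genes called in the first 3. Without the filter on low values the first count was 105. With every probe set tested, 3866 and 4490 were called for RIP-OVAhi and OCS/LPS against naive.

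With limma fitted on the compared groups only, the counts were 416 for RIP-OVAhi against OCS/LPS, 1601 for RIP-OVAhi against naive, and 0 for RIP-OVAhi against Rag, OCS/LPS against Rag and Rag against naive (3318, 3312 and 543 at an unadjusted p under 0.05). Of the 7 genes 0 were then called against Rag. Replicates 1 and 2 share a number, and the labels do not say that it marks a shared batch. Their differences correlated across genes at r = 0.348, 0.132 and 0.325 between groups, and at 0.197, -0.059 and -0.024 without the sex chromosomes. A replicate block gave 231, 1043, 1031, 2299, 2610 and 187 calls and 2, 4 and 6 of the 7 genes.

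Centring on the median of the tested genes, added after seeing the data, moved all log2 differences by -0.12 in RIP-OVAhi and -0.15 in OCS/LPS against naive. The share of calls that were higher went from 61% to 47.9%, from 62.5% to 47.8% and, in Rag, from 78.6% to 68.4%. Under it Xkrx was called between RIP-OVAhi and OCS/LPS (0.90, adjusted p = 0.0329), Cxxc5 between RIP-OVAhi and Rag (-0.62, 0.0378) and Cnn3 between OCS/LPS and Rag (-0.63, 0.0361). Without the filter on low values Hacd1 (adjusted p = 0.128) and Cnr2 (0.0801) lost and Cxxc5 (0.0343) gained the call between RIP-OVAhi and Rag. Without the Rag array all 21 likeness correlations stayed between 0.884 and 0.994, and 8 of 21 places stayed in the closest 3. Signal near background limits App, Xkrx, Cxxc5 in OCS/LPS and Hacd1 in Rag.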
